A study of Mus musculus with 8 samples.

Results

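The core of the Hippo pathway was read in mouse liver through 10 genes: the coactivators Yap1 (YAP) and Wwtr1 (TAZ), the DNA-binding factors Tead1, Tead2, Tead3 and Tead4, the kinases Lats1 and Lats2, and the upstream kinases Stk3 (MST2) and Stk4 (MST1). They were chosen by gene symbol, and each was found once among the 17164 genes of the expression table. RNA was sequenced from whole liver of male C57BL/6 mice, killed at 22 weeks of age, in 4 groups of 6 mice from which 2 livers each were drawn at random. Model mice had diethylnitrosamine (DEN, 0.67%, a DNA-alkylating liver carcinogen) at an age of 2 weeks. From 8 weeks onward they had the hepatotoxin carbon tetrachloride (CCl4, 20% in olive oil), which causes scarring, and both agents went into the abdomen. DWYG-M and DWYG-H mice had the same DEN and CCl4 and, from 17 weeks, Diwu Yanggan capsules, a herbal preparation, dosed at the clinical equivalent (1 multiple) in DWYG-M and at 2 multiples of it in DWYG-H. Control mice had saline in place of DEN and are described with no further agent. The study's title names YAP signalling as the subject, and model livers stand for chemically induced liver cancer. The labels name the tissue only as liver, so tumour and surrounding tissue cannot be told apart, and the p-values measure the spread between 2 livers a group.

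In the Hippo pathway MST kinases activate LATS kinases, which phosphorylate YAP and TAZ and so hold them in the cytoplasm or send them for degradation. Unphosphorylated YAP and TAZ enter the nucleus, where they bind DNA through partner factors, chiefly the TEADs, and switch on genes of growth and matrix contact. In liver the pathway limits organ size and hepatocyte proliferation, and YAP is normally more abundant in bile duct cells than in hepatocytes. Much of this control acts on protein phosphorylation and location, which RNA levels do not read.

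Libraries held between 17345627 and 19191382 expected read counts, and between 10101 and 11556 genes reached an FPKM of 1. FPKM scales reads by transcript length and by the size of the library, so it can be set side by side between genes. Model replicate 2 lay farthest from the control livers (r = 0.858 and 0.864 over log2 CPM, counts scaled to the library, across genes), and the replicates of the model group correlated at 0.961 with each other, against 0.984 for the control replicates. Fold changes below are edgeR estimates from expected counts scaled by TMM over all 8 libraries, and a gene was called at an adjusted p under 0.05 over the 11606 genes tested.

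RNA of 1 coactivator and of 3 TEAD factors rose in model livers, and the remaining members were not called. In model livers Wwtr1, Tead1, Tead2 and Tead4 were higher than in control livers, while Yap1, Tead3, Lats1, Lats2, Stk3 and Stk4 had log2 fold changes between −0.11 and 0.04. The call rule gave 4 members that rose and 0 that fell, where 15.1% of all genes tested rose and 7.12% fell. Tead2 and Tead4 passed the filter on low values only through livers given DEN and CCl4, so the member count supports nothing beyond the values of each gene. It also rested on single livers, with 1 call left without control replicate 1, 0 without control replicate 2, 2 without model replicate 1 and 1 without model replicate 2. By limma on log2(TPM + 1), where the median gene moved by 0.50, there were 7, with Yap1 (adjusted p = 0.0204), Tead3 (0.0343) and Stk4 (0.0399) added, where 45.8% of all genes rose. The median log2 fold change of the 10 members was 0.04, against −0.01 over all genes tested. In bulk RNA, a change in the number of cells that express a gene and a change in RNA per cell cannot be told apart.

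Promoter sequences of the coactivators and of Tead2 are shown because Wwtr1 and Tead2 were both called higher in model vs control while Yap1 was not called. Each is the RefSeq window of build GRCm38.p6 from 250 bases before to 50 bases after the gene's start, printed 5′ to 3′ on the strand of the gene. This build differs from GRCm39, the one named for the expression values. Capitals mark GGAATG or its reverse complement CATTCC, the core that TEAD factors recognise. The Yap1 window lies at chr9:8004547-8004846 on the minus strand, that of Wwtr1 at chr3:57575861-57576160 on the minus strand and that of Tead2 at chr7:45215542-45215841 on the plus strand.
Yap1: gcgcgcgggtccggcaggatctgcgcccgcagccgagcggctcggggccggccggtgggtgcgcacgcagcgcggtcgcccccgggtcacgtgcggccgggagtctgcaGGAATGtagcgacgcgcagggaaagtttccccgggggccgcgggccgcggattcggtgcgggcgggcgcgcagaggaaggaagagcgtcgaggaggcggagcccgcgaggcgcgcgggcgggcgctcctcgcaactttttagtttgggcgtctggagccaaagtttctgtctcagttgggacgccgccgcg
Wwtr1: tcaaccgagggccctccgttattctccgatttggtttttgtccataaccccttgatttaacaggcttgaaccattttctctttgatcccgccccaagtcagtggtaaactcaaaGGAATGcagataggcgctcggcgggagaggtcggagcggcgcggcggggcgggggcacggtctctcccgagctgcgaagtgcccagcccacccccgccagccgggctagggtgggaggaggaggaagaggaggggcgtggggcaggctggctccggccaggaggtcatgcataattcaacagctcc
Tead2: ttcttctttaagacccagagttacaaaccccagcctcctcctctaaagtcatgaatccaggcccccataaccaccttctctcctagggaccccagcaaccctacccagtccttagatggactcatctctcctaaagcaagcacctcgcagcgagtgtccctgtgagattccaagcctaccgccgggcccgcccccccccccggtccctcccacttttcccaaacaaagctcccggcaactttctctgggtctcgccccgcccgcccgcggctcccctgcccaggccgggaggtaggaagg
The Yap1 window held 1 match, whose first base was at −141 from the start, and the Wwtr1 window 1 match, at −136. The printed Tead2 window held 0 matches. Windows were found for 7 of the 10 members, Tead1, Tead4 and Stk3 being without one, and 6 of their 11 windows held a match. The windows with a match belong to Yap1, Wwtr1, Tead3 and Lats2. Those of Wwtr1 overlap and hold the same match, and those of Tead3 overlap as well, so the 11 windows are not independent. Of all 32851 windows of this length, 14.7% held a match. GC content was 74.0% in the Yap1 window and 61.7% in the Wwtr1 window, against a median of 52.7% over all windows, and the Yap1 window had an observed to expected CpG ratio of 1.23, against a median of 0.384. Such a match describes letters only.

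Yap1 (Entrez 22601), the coactivator for which the pathway is best known, was the most abundant member in every group. It had 24.03 and 24.4 FPKM in model livers, 22.9 and 21.9 in DWYG-M livers, 21.9 and 22.0 in DWYG-H livers and 22.0 and 21.5 in control livers. All 8 livers lay within this narrow band, with the 2 model livers at its top. The group means were 24.2 ± 0.262 FPKM in model and 21.7 ± 0.332 in control (SD, n = 2 each). On the count scale with TMM the log2 fold change in model vs control was −0.11 (SE 0.14, 95% interval −0.44 to 0.22, edgeR adjusted p = 0.612). The sign depends on the scaling, being 0.15 on log2(FPKM + 1) and 0.46 on log2(TPM + 1), where the median of all genes moved by 0.21 and 0.50. Without model replicate 1 it was 0.01.

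Wwtr1 (Entrez 97064), which encodes TAZ, the close relative of YAP, was the coactivator that rose. Its level was 9.02 and 7.58 FPKM in model livers, 7.88 and 7.99 in DWYG-M livers, 7.77 and 6.38 in DWYG-H livers and 4.03 and 4.57 in control livers. Every liver given DEN and CCl4 lay above both control livers. The log2 fold change was 0.67 in model vs control (SE 0.17, 95% interval 0.27 to 1.06, edgeR adjusted p = 0.0281). When any one of the control or model livers (replicate 1 or 2 of either) was left out it passed no longer, with adjusted p between 0.0528 and 0.149, and likewise with only both groups compared in the fit (adjusted p = 0.0675). With one library left out in turn, the fold change itself stayed between 0.52 and 0.79. Taking all 6 DEN and CCl4 livers against control, Wwtr1 was higher by 0.61 (SE 0.14, adjusted p = 0.0253), which fell short without control replicate 1 (0.180), control replicate 2 (0.0862) or DWYG-M replicate 1 (0.0575).

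**Figure D1:**
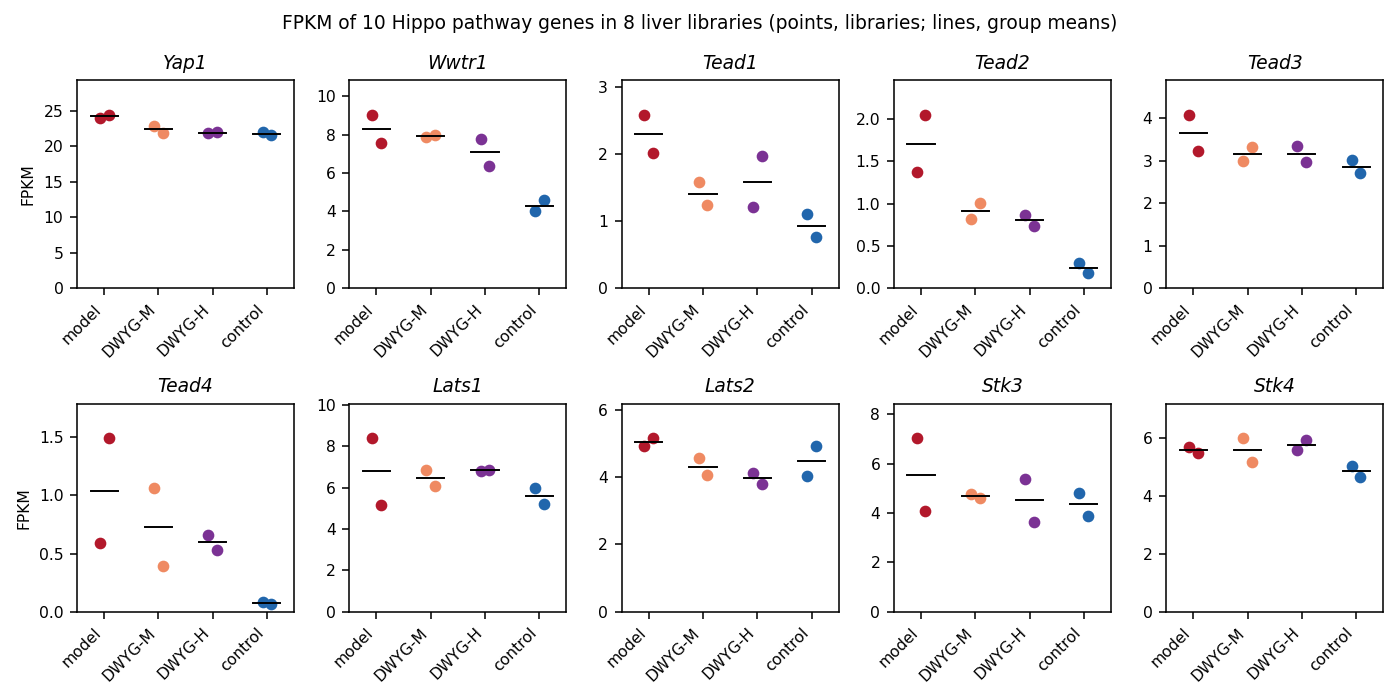
FPKM (vertical axis, one scale per gene, starting at 0) of the 10 genes in the model, DWYG-M, DWYG-H and control livers. Points are single livers and horizontal lines group means of 2 livers. Wwtr1, Tead1, Tead2, Tead4 and Stk4 lie higher in every liver given DEN and CCl4 than in both control livers. This order held for 35.1% of all genes tested. The 8 Yap1 values lie between 21.5 and 24.4.

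The balance of the coactivators was read as a ratio within each library, which no library scaling can change. Yap1 over Wwtr1 in FPKM was 2.66 and 3.22 in model livers, 2.91 and 2.74 in DWYG-M livers, 2.81 and 3.44 in DWYG-H livers and 5.45 and 4.71 in control livers. No DEN and CCl4 liver reached the lower control value. Wwtr1 made up between 22.5% and 27.3% of summed Yap1 and Wwtr1 FPKM in the 6 treated livers, against 15.5% and 17.5% in control livers. On the log2 scale the ratio averaged 1.56 ± 0.144 (SD, n = 6) after DEN and CCl4 and 2.34 ± 0.15 (n = 2) in control, a difference of −0.78. The exact permutation test over libraries gave a two-sided p of 0.0357, the smallest that 6 against 2 allows, and 0.179 after adjustment over the 5 ratios tested, so it did not pass.

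The 4 TEAD genes, which encode the factors that bring YAP and TAZ to DNA, differed among themselves. Tead3 (Entrez 21678) was the most abundant and was not called, with 4.08 and 3.23 FPKM in model livers, 3 and 3.33 in DWYG-M livers, 3.34 and 2.98 in DWYG-H livers and 3.01 and 2.71 in control livers. The model and control values of Tead3 did not overlap, but those of the DWYG groups overlapped control, and the log2 fold change in model vs control was 0.04 (SE 0.19, 95% interval −0.39 to 0.47, adjusted p = 0.906).

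Tead1 (Entrez 21676), which in mouse is best known from the heart, had 2.59 and 2.02 FPKM in model livers, 1.59 and 1.24 in DWYG-M livers, 1.21 and 1.98 in DWYG-H livers and 1.11 and 0.76 in control livers. Both model livers lay above both DWYG-M and both DWYG-H livers, and all 6 lay above control. It rose by 1.03 on the log2 scale in model vs control (SE 0.26, 95% interval 0.42 to 1.63, edgeR adjusted p = 0.0279). That call also failed when any one of these 4 model and control livers was left out (adjusted p between 0.0590 and 0.170). Over all DEN and CCl4 livers the fold change of Tead1 was 0.66 (95% interval 0.15 to 1.18, adjusted p = 0.0774).

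Tead2 (Entrez 21677), the TEAD of early mouse embryos and neural progenitors, was low in control liver. Its level was 1.37 and 2.05 FPKM in model livers, 0.82 and 1.01 in DWYG-M livers, 0.87 and 0.74 in DWYG-H livers and 0.30 and 0.18 in control livers. The groups stood apart in that order of model, both DWYG groups and control, the DWYG groups overlapping each other. It rose by 2.53 in model vs control (SE 0.45, 95% interval 1.48 to 3.58, adjusted p = 0.00792), and by 1.92 over all 6 livers (SE 0.41, adjusted p = 0.0191). Leaving out control replicate 2 took the adjusted p of model vs control to 0.0686, the only library of 8 to do so. The wider comparison fell short without control replicate 1 (0.0800) or control replicate 2 (0.158).

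Tead4 (Entrez 21679), the TEAD that mouse embryos need to form trophectoderm, had the largest fold change of the 10 genes and the fewest reads in control livers. It had 0.59 and 1.49 FPKM in model livers, 1.06 and 0.39 in DWYG-M livers, 0.66 and 0.53 in DWYG-H livers and 0.08 and 0.07 in control livers. These rest on 29 and 77 expected counts in model, 53 and 19 in DWYG-M, 31 and 27 in DWYG-H and 4 and 3 in control livers. Every DEN and CCl4 liver lay well above control, and the replicates within model and within DWYG-M were themselves far apart. Tead4 rose by 3.56 in model vs control (SE 0.80, 95% interval 1.72 to 5.39, adjusted p = 0.0179), and by 3.14 over all 6 livers (SE 0.74, adjusted p = 0.0250). The model vs control call needed both control livers and model replicate 2, with an adjusted p of up to 0.107 when one of them was left out, and the wider one failed without control replicate 1 (0.135), control replicate 2 (0.168) or DWYG-H replicate 1 (0.0521).

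Summed counts give the precision of these low genes. For Tead4, 106 counts in model against 7 in control made a depth-scaled ratio of 11.9 with an exact 95% interval of 5.58 to 30.3. The ratio to control was 8.65 (3.99 to 22.3) in DWYG-M and 7.08 (3.22 to 18.4) in DWYG-H. For Tead2, 103 counts in model against 14 in control made a ratio of 5.78 (3.30 to 11.0), and the DWYG groups had 3.30 (1.81 to 6.43) in DWYG-M and 2.87 (1.55 to 5.64) in DWYG-H. These intervals cover counting error only. Tead2 reached an FPKM of 1 in 3 libraries and Tead4 in 2, none of them control, so both were tested only because of the livers in which they were high. Tead1 reached it in 7 of 8 libraries.

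**Figure D2:**
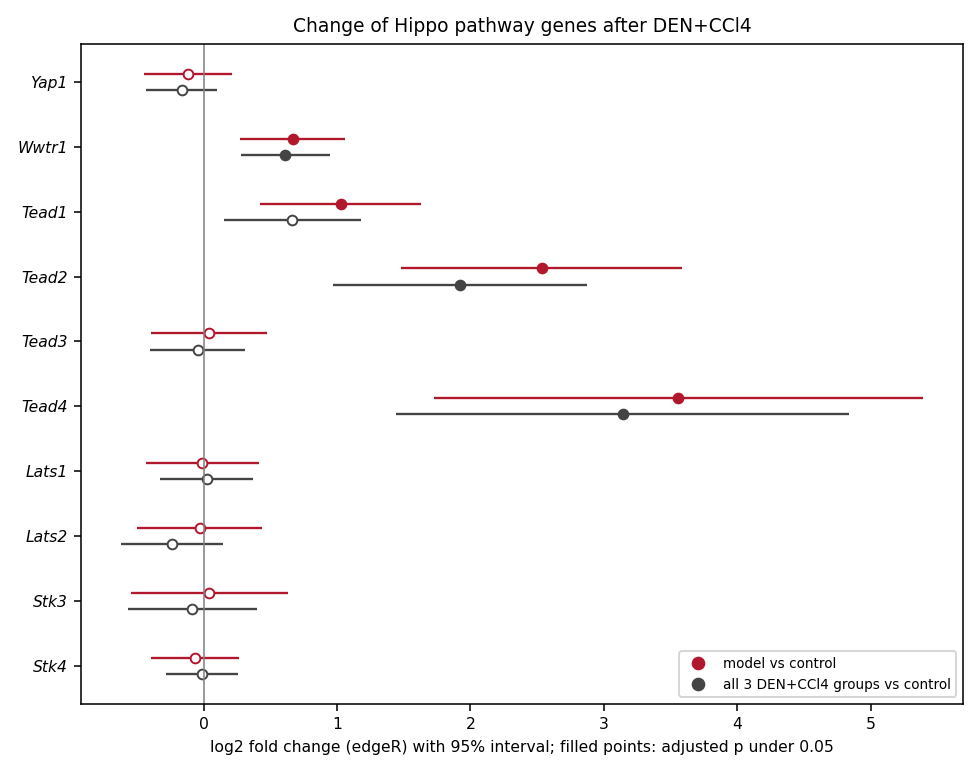
Log2 fold change from edgeR (horizontal axis, lines are 95% intervals) for model vs control and for all 3 DEN and CCl4 groups vs control, one row per gene. Filled points have an adjusted p under 0.05: Wwtr1, Tead1, Tead2 and Tead4 in model vs control, and the same without Tead1 in the wider comparison.

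The make-up of the TEAD pool was compared within libraries. Tead3 held 47.3% and 36.7% of summed TEAD FPKM in model livers, between 46.4% and 55.8% in the DWYG livers, and 66.9% and 72.8% in control livers. Tead4 held 6.84% and 17.0% in model livers, 16.4% and 6.53% in DWYG-M livers, 10.9% and 8.51% in DWYG-H livers, and 1.78% and 1.88% in control livers. Both control livers were thus the highest of all in their Tead3 share and the lowest in their Tead4 share. The Tead4 share averaged 11.0% ± 4.65 (SD, n = 6) after DEN and CCl4 and 1.83% ± 0.0735 (n = 2) in control, with an exact two-sided permutation p of 0.0714 and an adjusted p of 0.179. Tead2 held between 11.9% and 23.3% in the 6 treated livers, against 6.67% and 4.84% in control livers. The Tead1 share ran from 19.9% to 31.8% in treated livers and overlapped the 24.7% and 20.4% of control livers.

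Summed over all 4 genes, TEAD RNA was 8.63 and 8.79 FPKM in model livers, 6.47 and 5.97 in DWYG-M livers, 6.08 and 6.23 in DWYG-H livers and 4.50 and 3.72 in control livers. Per unit of summed Yap1 and Wwtr1 this was 0.261 and 0.275 in model livers, 0.210 and 0.20 in DWYG-M livers, 0.205 and 0.220 in DWYG-H livers and 0.173 and 0.143 in control livers. Model livers were the highest, control livers the lowest and the DWYG groups lay between, overlapping each other. This sum was formed after the values of its parts were seen and has no test.

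**Figure D3:**
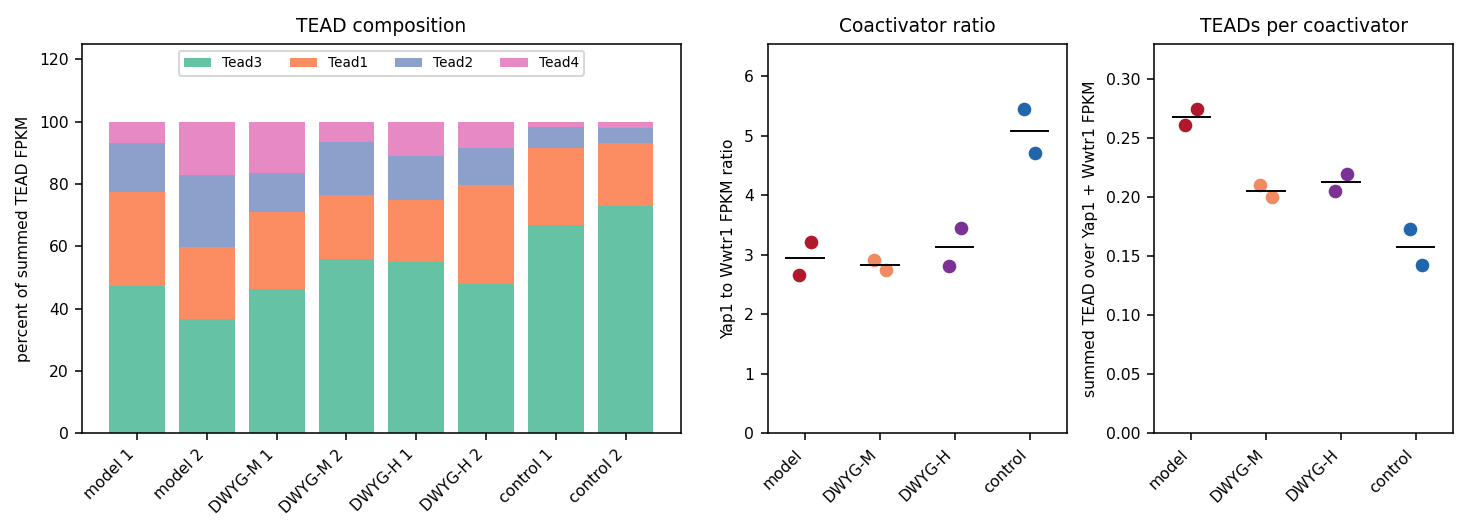
TEAD composition (percent of summed Tead1 to Tead4 FPKM), the ratio of Yap1 to Wwtr1 FPKM, and summed TEAD FPKM over summed Yap1 and Wwtr1 FPKM, for each of the 8 livers from model to control. The control livers have the largest Tead3 shares (66.9% and 72.8%), the highest Yap1 to Wwtr1 ratios (5.45 and 4.71) and the lowest TEAD sums per coactivator (0.173 and 0.143).

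The LATS kinases, which phosphorylate YAP and TAZ directly, gave no call. Lats1 (Entrez 16798) had 8.39 and 5.18 FPKM in model livers, 6.86 and 6.06 in DWYG-M livers, 6.81 and 6.87 in DWYG-H livers and 5.98 and 5.2 in control livers. The model replicates alone spanned the range of all other livers. Its log2 fold change in model vs control was −0.01 (95% interval −0.43 to 0.42, adjusted p = 0.980), or 0.22 without model replicate 2 and −0.26 without model replicate 1. Lats2 (Entrez 50523), which is itself a YAP target in many cells, had 4.93 and 5.16 FPKM in model livers, 4.57 and 4.06 in DWYG-M livers, 4.14 and 3.79 in DWYG-H livers and 4.05 and 4.92 in control livers. The model livers were the 2 highest, though 1 control liver came within 0.01 FPKM of them. Lats2 gave −0.03 in model vs control (95% interval −0.50 to 0.44, adjusted p = 0.940) and −0.24 over all DEN and CCl4 livers (95% interval −0.62 to 0.14, adjusted p = 0.357). Both LATS signs in model vs control turned positive on FPKM and TPM values, with 0.21 and 0.51 for Lats1 and 0.14 and 0.43 for Lats2, close to the shift of all genes on those scales.

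The MST kinases at the head of the cascade were not called either. Stk3 (Entrez 56274) had 7.03 and 4.08 FPKM in model livers, 4.78 and 4.61 in DWYG-M livers, 5.39 and 3.64 in DWYG-H livers and 4.82 and 3.88 in control livers, all groups overlapping. Its log2 fold change in model vs control was 0.04 (95% interval −0.55 to 0.63, adjusted p = 0.924). Its expected counts have fractions in 7 of 8 livers, and the cause of these was not tested. Stk4 (Entrez 58231) had 5.69 and 5.47 FPKM in model livers, 5.99 and 5.18 in DWYG-M livers, 5.60 and 5.92 in DWYG-H livers and 5.04 and 4.67 in control livers. In FPKM all 6 treated livers lay above control for Stk4, but not in TMM-scaled CPM, and its log2 fold change was −0.07 (95% interval −0.40 to 0.26, adjusted p = 0.780), or 0.46 on TPM values.

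Every DEN and CCl4 liver lay above every control liver in FPKM for 5 of the 10 members (Wwtr1, Tead1, Tead2, Tead4 and Stk4), and this held for 35.1% of all genes tested. In TMM-scaled CPM it held for 4 members, the same without Stk4, against 21.2% of genes. Over all 3 DEN and CCl4 groups vs control, 3 members rose and 0 fell, where 12.4% of genes rose and 4.64% fell. That count was 0 without control replicate 1 or without control replicate 2.

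Ratios between kinases moved little. Lats1 over Lats2 in FPKM was 1.70 and 1.00 in model livers, between 1.49 and 1.81 in the DWYG livers, and 1.48 and 1.06 in control livers. The log2 ratio differed by 0.26 between treated and control livers (exact permutation p = 0.357, adjusted p = 0.446). Stk3 over Stk4 ran from 0.615 to 1.24 in treated livers, against 0.956 and 0.831 in control livers (log2 difference −0.06, exact permutation p = 0.750, adjusted p = 0.750). Summed coactivators over summed LATS kinases were 2.48 and 3.09 in model livers, between 2.66 and 2.95 in the DWYG livers, and 2.59 and 2.58 in control livers (log2 difference 0.09, exact permutation p = 0.286, adjusted p = 0.446). In none of these 3 ratios did the 6 treated livers stand clear of both control livers.

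In order of mean FPKM, control livers had Yap1 first, then Lats1, Stk4, Lats2, Stk3, Wwtr1, Tead3, Tead1, Tead2 and Tead4. The values of Stk4, Lats2, Stk3 and Wwtr1 overlapped along that order, and those of Yap1 stood far above the rest. In model, DWYG-M and DWYG-H livers Wwtr1 came second, after Yap1. The means of Wwtr1 were 8.30 ± 1.02 FPKM in model, 7.94 ± 0.0778 in DWYG-M, 7.08 ± 0.983 in DWYG-H and 4.30 ± 0.382 in control (SD, n = 2 each).

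The DWYG groups were set against the model to ask whether the capsules changed these genes, with the same model livers as in the comparison with control. By edgeR 0 members were called with either dose, with both doses together or between doses. Over all genes 0.00862% were called in DWYG-M vs model, 0% in DWYG-H vs model, 0.0345% for both doses and 0% in DWYG-H vs DWYG-M. DESeq2 also called 0 members, with 1.77% of all genes called in DWYG-M vs model, 1.03% in DWYG-H vs model, 2.77% for both doses and 0.0431% between doses. At an unadjusted p under 0.05 there was 1 member in DWYG-M vs model, 1 in DWYG-H vs model, 2 for both doses and 0 between doses. Over all genes the shares at that threshold were 12.6% in DWYG-M vs model, 8.49% in DWYG-H vs model, 13.9% for both doses and 1.66% between doses, so the members stood near the background.

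The lowest p-values for both doses together belonged to Tead2 and Tead1. Tead2 had 0.82 and 1.01 FPKM in DWYG-M livers and 0.87 and 0.74 in DWYG-H livers, against 1.37 and 2.05 in model livers, with a log2 fold change of −0.92 for both doses (SE 0.32, 95% interval −1.66 to −0.17, adjusted p = 0.283). Per dose it was −0.82 in DWYG-M and −1.02 in DWYG-H. Tead1 gave −0.54 for both doses (SE 0.22, 95% interval −1.05 to −0.04, adjusted p = 0.322), with −0.63 in DWYG-M and −0.46 in DWYG-H. For both genes all 4 DWYG livers lay below both model livers in FPKM, as they also did for Yap1 and Lats2. The share of all genes with this order was not counted. Tead2 reached an FPKM of 1 in 3 libraries, both model livers among them, so its test rested on livers in which it was high. Neither Tead1 nor Tead2 passed the adjustment over all genes.

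For Tead4 the replicates decided the sign. Both doses together gave −0.63 (95% interval −1.78 to 0.53, adjusted p = 0.639), and without model replicate 2, the liver with 1.49 FPKM, the value was 0.32. Per dose it was −0.49 in DWYG-M and −0.77 in DWYG-H, or 0.46 and 0.18 without that liver, and DWYG-M also turned to 0.06 without its own replicate 2.

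The coactivators had log2 fold changes near 0 in the DWYG groups vs model. Wwtr1 gave 0.00 in DWYG-M vs model (95% interval −0.39 to 0.39) and −0.16 in DWYG-H vs model (−0.55 to 0.22). Yap1 gave −0.07 for both doses (−0.36 to 0.21, adjusted p = 0.853). In FPKM Yap1 averaged 22.4 ± 0.714 in DWYG-M and 21.9 ± 0.0636 in DWYG-H, against 24.2 ± 0.262 in model. The intervals allow for either gene a change of up to about the sizes they span, so a p over the threshold does not show that the groups were alike.

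The remaining members had intervals that include 0 for both doses. Lats2 gave −0.31 (−0.72 to 0.09), Stk3 −0.19 (−0.70 to 0.31), Tead3 −0.12 (−0.49 to 0.25), Stk4 0.08 (−0.20 to 0.37) and Lats1 0.05 (−0.32 to 0.42). Between doses, DWYG-H vs DWYG-M, log2 fold changes of the 10 members ran from −0.28 to 0.17.

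**Figure D4:**
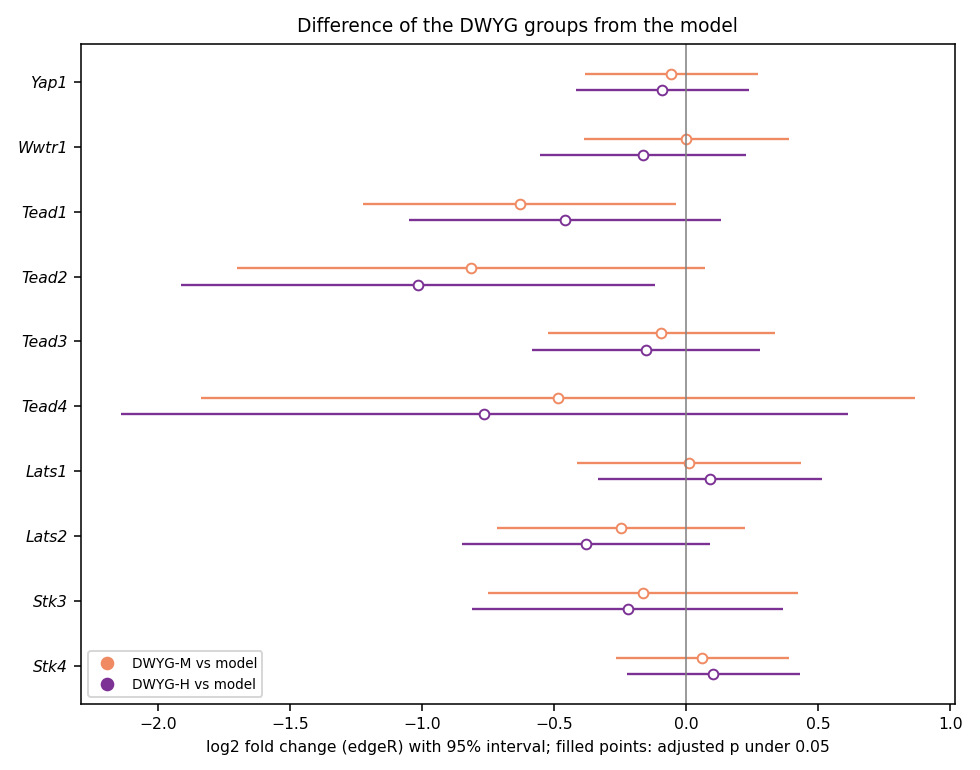
Log2 fold change from edgeR (horizontal axis, lines are 95% intervals) of DWYG-M vs model and DWYG-H vs model, one row per gene. No point is filled, since no member had an adjusted p under 0.05. The intervals of Tead1 in DWYG-M and of Tead2 in DWYG-H end below 0.

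Set against control, the DWYG livers gave 0 called members with either dose, where 4.95% of genes were called in DWYG-M and 7.69% in DWYG-H. The fold changes were close to those of the model for Wwtr1, with 0.67 in DWYG-M (adjusted p = 0.0702) and 0.50 in DWYG-H (0.121). Tead4 gave 3.07 in DWYG-M (0.0780) and 2.79 in DWYG-H (0.0845), and Tead2 1.72 (0.0874) and 1.52 (0.0989). Tead1 gave 0.40 in DWYG-M (0.470) and 0.57 in DWYG-H (0.239). In each of these comparisons 3 members had an unadjusted p under 0.05, where 19.2% of all genes did in DWYG-M and 23.8% in DWYG-H. DESeq2 called 2 members in DWYG-M, where it called 8.68% of all genes, and 1 in DWYG-H, where it called 11.9%. All comparisons with control share the same 2 control livers.

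Other genes of the pathway were read from 4 lists, of which that of target genes shares Amotl2 and Ptpn14 with another and holds Lats2. Of 23 tested MST and LATS cofactors and upstream regulators, 4 rose and 1 fell in model vs control (median log2 fold change 0.00), near the 15.1% and 7.12% of all genes tested. Map4k4, a kinase that can activate LATS beside the MST kinases, rose by 1.83 (SE 0.21, adjusted p = 0.00167), with 10.7 and 8.86 FPKM in model livers and 2.58 and 1.97 in control livers, and was called with any library left out. The atypical cadherin Fat1 rose by 1.45 (adjusted p = 0.0148) and the FERM-domain protein Frmd6 by 1.16 (0.0282), both lost without control replicate 1, control replicate 2 or model replicate 2. Wwc1 (KIBRA), a scaffold that promotes LATS activation, fell by 0.57 (adjusted p = 0.0220), with 18.0 and 16.5 FPKM in model livers and 23.0 and 19.6 in control livers. That call failed without any one of these 4 livers, and on FPKM and TPM values (adjusted p between 0.192 and 0.915). The list had 1 call left without either control liver and 2 without model replicate 2.

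Among 22 tested cytoplasmic binders and negative regulators of YAP and TAZ, 6 rose and 0 fell in model vs control. Of all genes tested 15.1% rose and 7.12% fell, and the median was 0.26 for the list, against −0.01 over all genes tested. Among the genes that rose, Wtip and Sfn averaged 0.55 and 0.35 FPKM in control livers. These 2 passed the filter on low values only with livers given DEN and CCl4. Csnk1e, a casein kinase that phosphorylates YAP after LATS and so marks it for degradation, rose by 1.15 (adjusted p = 0.00535), with 5.40 and 4.55 FPKM in model livers and 1.76 and 1.92 in control livers, and remained called with any library left out. Ywhah, a 14-3-3 protein of the family that binds phosphorylated YAP, rose by 0.82 (adjusted p = 0.00782), to 67.7 and 65.5 FPKM in model livers, against 31.6 and 30.9 in control livers. It fell short without control replicate 1 or 2 (adjusted p up to 0.0576). The angiomotin gene Amot rose by 1.32 (0.0155) and the LIM protein gene Wtip by 1.62 (0.0253), each short of the threshold without control replicate 1, control replicate 2 or model replicate 2. In this list 1 call was left without either control liver and 2 without model replicate 2.

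Of the VGLL cofactors, which compete with YAP for TEAD, only Vgll4 was tested. It had 13.7 and 11.4 FPKM in model livers, 11.7 and 10.2 in DWYG-M livers, 10.4 and 8.65 in DWYG-H livers and 11.4 and 8.33 in control livers. These overlap, and the log2 fold change in model vs control was 0.04 (adjusted p = 0.889; the sign turned with the filter on low values).

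Of 17 tested core YAP and TAZ target genes, 7 rose and 0 fell in model vs control, where 15.1% of all genes tested rose and 7.12% fell. The median log2 fold change was 0.74, against −0.01 over all genes tested. Ankrd1 and Myof, both among the 7, had under 1 FPKM in both control livers. They passed the filter on low values only through livers given DEN and CCl4, and 17 of 21 targets with values passed it. The count therefore supports nothing beyond the values of each gene. Fewer targets were called without control replicate 1, control replicate 2, model replicate 1, DWYG-H replicate 1 or DWYG-H replicate 2. The fewest were called without either control liver. Among targets not called, Ccn2 gave 2.11 (adjusted p = 0.113) and Ccn1 −0.35 (adjusted p = 0.718). For the target with the largest fold change, Ankrd1, the levels were 3.51 and 6.31 FPKM in model livers, 1.14 and 1.27 in DWYG-M livers, 1.04 and 1.42 in DWYG-H livers and 0.35 and 0.20 in control livers. Ccdc80 had 23.96 and 25.73 FPKM in model livers, between 12.3 and 15.2 in the DWYG livers, and 3.32 and 3.55 in control livers. For Myof the values were 3.59 and 3.76 FPKM in model livers, between 1.5 and 2.27 in the DWYG livers, and 0.48 and 0.50 in control livers. Axl, a receptor tyrosine kinase, had 19.3 and 14.4 FPKM in model livers, between 12.4 and 12.9 in the DWYG livers, and 9.04 and 7.65 in control livers. For these 4 targets all DWYG livers lay below both model and above both control livers. They were named for the smallest p in model vs control, so high model and low control livers follow in part from that choice. Other targets did not all have this order. Ccn1 averaged 10 FPKM in model, 4.64 in DWYG-M, 4.425 in DWYG-H and 10.37 in control. The share of all genes with this order was not counted. In the comparison of both doses with the model 0 genes of any of the 4 lists were called, with medians of −0.04, −0.13, −0.21 and −0.49 in the order given. A single target (1) was called there without model replicate 1, and Ankrd1 gave −1.98 with an adjusted p of 0.101.

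Most markers of cholangiocytes and of stellate cells and fibroblasts were also higher in model than in control livers. Summed FPKM of 8 cholangiocyte markers, which include Krt19, Epcam and Spp1, was 328 to 468 in model, 192 to 226 in DWYG-M, 241 to 286 in DWYG-H and 45.3 to 47.6 in control livers, and 6 of 7 tested rose in model vs control. Spp1 made up most of this sum, with means of 362 FPKM in model, 193 in DWYG-M, 249 in DWYG-H and 36.1 in control. The 12 stellate cell and fibroblast markers summed to 406 to 429 in model, 260 to 314 in DWYG-M, 262 to 280 in DWYG-H and 115 to 116 in control livers, with 9 of 12 called higher. Of all genes tested 15.1% rose and 7.12% fell in model vs control. Among the markers called, Krt7, Krt19, Epcam, Muc1, Col1a1 and Pdgfra averaged under 1 FPKM in control livers. They passed the filter on low values only with livers given DEN and CCl4. Summed levels of both lists, the first of them mostly Spp1, were highest in model, lower in both DWYG groups and lowest in control, like Tead1, Tead2 and the TEAD sum. Their part in the TEAD and Wwtr1 results was not tested.

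The other marker lists moved less evenly, and their counts stand beside the same 15.1% of all genes that rose and 7.12% that fell. Gpnmb, Trem2 and Vwf, all called, averaged under 1 FPKM in control livers. They too passed the filter on low values only with livers given DEN and CCl4. Endothelial markers summed to 123 to 154 FPKM in model, 158 to 160 in DWYG-M, 128 to 152 in DWYG-H and 110 to 119 in control livers, with 1 of 9 called, or 0 without either control liver, without model replicate 2 or without DWYG-H replicate 1. Kupffer cell and macrophage markers summed to 164 to 229 in model, 145 to 147 in DWYG-M, 156 to 178 in DWYG-H and 132 to 168 in control livers, 3 of 8 rising and 1 falling. Neutrophil markers summed to 54.3 to 197 in model, 82.8 to 238 in DWYG-M, 96.1 to 98.3 in DWYG-H and 7.80 to 11.9 in control livers, with Ly6g and Mpo at 0 in both control livers. Of 3 neutrophil markers tested 2 were called, or 0 without control replicate 1 or 2, 1 without model replicate 1 and 3 without model replicate 2. B and plasma cell markers summed to 21.4 to 23.2 in model, 16.8 to 21.0 in DWYG-M, 23.0 to 35.0 in DWYG-H and 4.14 to 9.26 in control livers, with 1 of 3 called. T and NK markers summed to 4.58 to 6.26 in model, 3.34 to 3.89 in DWYG-M and 2.10 to 4.24 in control livers. In DWYG-H they were 4.06 in 1 liver and 19.5 in the other, and 0 of 1 tested was called. The 8 hepatocyte markers, Alb among them, summed to between 62761 and 96780 in every liver, with 0 that rose and 1 that fell.

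Genes whose levels followed a member most closely over the 8 libraries were listed by Pearson r of log2 CPM, as a description, since the 4 groups drive most of the variation. For Yap1 these were Stub1 (r = 0.982), Tm2d3 (0.961) and Odc1 (0.959), and within the 6 DEN and CCl4 livers Stub1 stood at 0.997. For Wwtr1 they were Plagl1 (0.975), Tmem9b (0.967) and F2r (0.964), which within the 6 livers dropped to 0.828 and 0.754 for Plagl1 and Tmem9b and to 0.931 for F2r. Tead1 was followed by Mrtfa (0.980), Aldh3b1 (0.970) and H2-M3 (0.970), Tead2 by Atpif1 (0.998), Epdr1 (0.987) and Tcf19 (0.985), and Tead4 by Klc3 (0.996), Frrs1 (0.994) and Anxa4 (0.993). For Tead1, Tead2 and Tead4 these values stayed between 0.942 and 0.991 within the 6 livers.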

How the data were processed

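Liver RNA came from an Ambion extraction and went into SMART-Seq mRNA LP (Takara) libraries, per the labels' protocols. The submitters' processing notes name the build GRCm39; the aligner, counter, annotation and strand setting were not given in the sources used here. Per the file headers, the authors' table of 17164 genes holds read counts, FPKM and TPM per library. From their values, the read counts deposited by the authors are expected counts, with 89.8% to 91.5% per library whole within 0.005. They were rounded. FPKM, deposited by the authors, scales reads by gene length and library. TPM, also deposited, served as an alternative. A further 8 columns of normalized counts were not used.

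Genes that reached FPKM 1 in 2 or more libraries (11606) were tested with edgeR 4.0.16 (glmQLFit and glmQLFTest, TMM scaling) in R 4.3.3, in one model of 4 groups and 8 libraries (residual df 4, common dispersion 0.0377, median prior df 3.98), with Benjamini-Hochberg adjustment over all genes tested. Standard errors came from the F statistic and intervals from the t distribution. Where no tool is named, a gene's adjusted p is edgeR's. Within-library ratios were tested by exact permutation over libraries, 6 against 2, adjusted over 5 ratios. Alternatives used RLE scaling, library totals without Alb and Mup genes, DESeq2 1.42.0, limma 3.58.1 on log2(FPKM + 1), log2(FPKM + 0.1) and log2(TPM + 1), other filters, only the groups compared, a replicate block and each library left out. The procedure was tested on simulated data.

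The members, the pathway and marker lists and the tests were chosen with earlier results of these data known. From each pathway list the up to 4 tested genes with the smallest p in model vs control are named with values; patterns like a member's are the 3 genes with the highest r over 8 libraries (prior count 2). Promoter windows are from RefSeq, build GRCm38.p6, matched by gene ID.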

Additional observations from a re-analysis of the deposited data

How the results depend on the processing

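The precision of all comparisons is limited by 2 livers a group, and that of Tead2 and Tead4 by their few reads. Values below are log2 fold changes, with the shift of the median gene subtracted where a scale moved it by over 0.1 (by 0.21, 0.25 and 0.50 for log2(FPKM + 1), log2(FPKM + 0.1) and log2(TPM + 1) in model vs control). Of the values of the 5 ratios and the counts of called members, 174 under an alternative kept their direction and side of the threshold (for a count, stayed within 1.5 times of the one reported), 21 counts moved further and 3 values of the log2 Stk3 to Stk4 ratio turned sign; the cause was not tested. For the 5 ratios the side of the threshold was nearly fixed in advance. With all 8 libraries the smallest exact permutation p possible was 0.0357 before adjustment. Without a control liver, or with model livers alone, no exact permutation p could fall under 0.05. That the ratios stayed on that side therefore says nothing of their stability. On TPM values 7 members were called in model vs control and 7 over all DEN and CCl4 groups vs control. Smaller moves were 3 called in model vs control with only the groups compared, and over all DEN and CCl4 groups 4 by DESeq2, 2 by limma on log2(FPKM + 1) and 2 without DWYG-M replicate 1 or DWYG-H replicate 1. Limma on FPKM or TPM called 0 members in any comparison of DWYG with the model. In DWYG-M vs control 2 members were called by DESeq2, 1 by limma on log2(FPKM + 1), 2 with a pseudocount of 0.1, 2 on TPM and 1 without a filter. In DWYG-H vs control 1 was called by DESeq2, 2 with a pseudocount of 0.1, 2 on TPM and 1 with only the groups compared.

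Signs near 0 turned for members that were not called. In model vs control Tead3 gave −0.0090 without a filter and −0.032 with edgeR's own filter, Stk3 −0.0061 and −0.030, Vgll4 −0.0073 and −0.030, and Lats1 0.0059 with only the groups compared. On TPM values Lats1 and Stk4 gave −0.051 and −0.036 for both DWYG doses vs model. Lats1 gave −0.023 over all DEN and CCl4 groups with edgeR's filter. Wwtr1 in DWYG-M vs model was −0.053 on log2(FPKM + 1), −0.059 with a pseudocount of 0.1, −0.016 on TPM and −0.0065 with only the groups compared. The log2 Stk3 to Stk4 ratio was 0.11 higher in model livers alone than in control.

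With each library left out in turn, the members called numbered 0 to 4 in model vs control, 0 to 1 in DWYG-M vs control, 0 to 1 in DWYG-H vs control and 0 to 3 over all DEN and CCl4 groups. In model vs control the ranges were −0.22 to 0.0087 for Yap1, −0.035 to 0.094 for Tead3, −0.26 to 0.22 for Lats1, −0.27 to 0.22 for Lats2, −0.25 to 0.29 for Stk3, −0.14 to 0.019 for Stk4 and −0.12 to 0.18 for Vgll4. For both doses vs model they were −0.18 to 0.037 for Yap1, −1.20 to 0.32 for Tead4, −0.18 to 0.32 for Lats1 and −0.44 to 0.11 for Stk3. Over all DEN and CCl4 groups they were −0.050 to 0.10 for Lats1, −0.48 to 0.021 for Lats2, −0.21 to 0.012 for Stk3 and −0.047 to 0.028 for Stk4. Per dose vs model they were −0.028 to 0.030 for Wwtr1 in DWYG-M, −1.39 to 0.46 for Tead4 in DWYG-M and −1.35 to 0.18 for Tead4 in DWYG-H. The log2 Stk3 to Stk4 difference ran from −0.17 to 0.039.

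Replicate numbers were shared between groups, and a fit with the replicate number as a block called 4 members in model vs control, 3 over all DEN and CCl4 groups and 0 in every other comparison. Deviations of same-numbered livers from their group means correlated at 0.204 for model with control, 0.0702 for DWYG-M with control, 0.0462 for DWYG-H with control, −0.143 for DWYG-M with model, 0.0778 for DWYG-H with model and 0.255 for DWYG-H with DWYG-M, so the numbers were not taken to pair the livers.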
